A study of Mus musculus with 12 samples.

Results

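The CCN genes encode a small family of secreted matricellular proteins, and the table holds all 6 of them under their older symbols, out of 54352 gene symbols: Cyr61 (Ccn1), Ctgf (Ccn2), Nov (Ccn3), Wisp1 (Ccn4), Wisp2 (Ccn5) and Wisp3 (Ccn6). The members were taken by symbol. Their transcripts were measured by bulk RNA sequencing in wild-type primary mouse adventitial fibroblasts of strain C57Bl/6, in 4 groups with 3 libraries each (12 libraries). Cells grown out of the adventitia of the ascending or of the descending aorta received solute control or mouse TGFb at 10 ng/mL, and RNA was taken after 48 h. The labels give all groups an age of 14 weeks and batch 1, and cells were passaged once in serum-containing medium before treatment per the labels. Parts of the study's text give another age and number of passages, and no source says whether the 3 libraries of a group came from separate animals or cultures, so the p-values measure only the spread between these libraries, which may be technical. The comparisons asked how each CCN transcript changed with TGFb at each aortic site, how the sites differed with and without TGFb, and whether the change with TGFb differed between sites.

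CCN proteins are built from modules that resemble an IGF-binding protein domain, a von Willebrand factor type C repeat, a thrombospondin type 1 repeat and a cystine knot, and they act at the interface of matrix and cell surface rather than as structural fibres. They bind integrins and proteoglycans and modulate growth factors such as TGFb, BMPs and VEGF. Ctgf and Cyr61 are standard readouts of the mechanosensitive co-activators YAP and TAZ, Ctgf is also a classical TGFb target in connective tissue cells and a marker of fibrosis, Wisp1 and Wisp2 were named as WNT1-inducible genes, and Nov has been described in several cell systems as opposing Ctgf.

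All members carry a cysteine pattern near the protein's amino terminus that is also known from IGF-binding proteins, and the coding stretch of that IGFBP-type motif is shown for each member to make the shared feature visible. Each stretch has 36 bases, is read 5′ to 3′ on the coding strand and lies within 1 coding exon. Capitals mark the 4 cysteine codons.
Cyr61: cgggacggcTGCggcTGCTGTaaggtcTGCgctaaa
Ctgf: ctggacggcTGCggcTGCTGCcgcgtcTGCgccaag
Nov: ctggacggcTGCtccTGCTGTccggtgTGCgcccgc
Wisp1: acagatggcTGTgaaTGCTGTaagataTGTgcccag
Wisp2: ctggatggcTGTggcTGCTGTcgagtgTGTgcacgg
Wisp3: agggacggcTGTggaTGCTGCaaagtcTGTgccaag
The stretches were read from GENCODE vM21 transcripts on GRCm38, at chr3:145649325-145649360 on the minus strand for Cyr61, chr10:24595960-24595995 on the plus strand for Ctgf, chr15:54746259-54746294 on the plus strand for Nov, chr15:66906539-66906574 on the plus strand for Wisp1, chr2:163825219-163825254 on the plus strand for Wisp2 and chr10:39158365-39158400 on the minus strand for Wisp3. They lie in exon 2 of 5 in every member except Wisp2, where the exon is 3 of 5. Between members, 58.3% to 80.6% of the 36 bases were identical, with Cyr61 and Ctgf as the closest pair. Over its whole coding sequence, Wisp2 encodes 251 residues with 29 cysteine codons, while the other 5 members encode 348 to 379 residues with 37 to 40 cysteine codons. Wisp2 is known to lack the carboxy-terminal cystine knot module that the other members carry.

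The gene models bear on how far each count can be read. Ctgf, at chr10:24595442-24598683 on the plus strand, overlaps the antisense gene Gm15270, with which 17.2% of its 50-base exon sequences are shared on either strand, and Wisp3, at chr10:39150970-39163794 on the minus strand, overlaps Tube1, with 31.8% shared. Gm15270 held 0 to 13 counts per library, against 14388 counts for Ctgf in the library where Ctgf was lowest. The strand setting of the counting is not given in the sources used here, so reads of overlapping genes cannot be told apart. The low Gm15270 counts therefore do not show whether Ctgf lost reads in the overlap. Cyr61 (chr3:145646976-145649981), Wisp1 (chr15:66891320-66923201) and Wisp2 (chr2:163820861-163833146) shared no 50-base sequence with another gene, and Nov (chr15:54745702-54754039) shared 1.14%.

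Total counts per library were 16250126 to 23892943. Descending control replicate 3 stood apart, with 13031 genes detected against 19337 to 20931 in the other 11 libraries and 11.02% of reads from mitochondrial genes against 0.703% to 1.03%. Tests of the CCN members that include descending control are therefore given with and without this library, as are the counts for the gene lists in descending fibroblasts. All 7 fibroblast markers (Pdgfra, Pdgfrb, Col1a1, Col1a2, Dcn, Lum, Thy1) were detected in every group, with Lum at 0.709 to 39.7 CPM (the count in a library scaled to a common library size), while of the 6 endothelial markers Pecam1 and Cdh5 were at most at 0.300 CPM and Tie1 was at 0 in every library. The endothelial sum was 23.9 to 27.9 CPM in control and 4.70 to 11.2 CPM in TGFb libraries, most of it Tek at 23.6 to 25.7 CPM and 3.60 to 9.27 CPM, and its part in the changes with TGFb was not tested. In bulk RNA, fewer cells expressing a gene and less RNA per cell cannot be told apart.

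Ctgf was the most abundant CCN transcript in all 12 libraries and Wisp3 was at or under the floor in all of them. Levels below are normalized CPM, scaled with TMM factors, and members are compared with each other only per kilobase, of exon unless coding length is named. Per kilobase, control fibroblasts ranked Ctgf, Cyr61, Wisp2, Nov and Wisp1 from high to low at both sites. In ascending control these were 544 ± 21.2, 259 ± 4.28, 225 ± 4.51, 55.2 ± 5.56 and 10.6 ± 0.274 CPM per kb in that order (SD, n = 3 for each group here and below). In descending control they were 420 ± 64.2, 292 ± 0.986, 172 ± 89.9, 51.8 ± 8.82 and 7.32 ± 1.60 CPM per kb, and without replicate 3 they were 457 ± 15.2, 292 ± 1.21, 224 ± 6.98, 56.8 ± 2.18 and 8.17 ± 0.887 CPM per kb (SD, n = 2). No neighbouring pair in either order overlapped between libraries. With TGFb, Ctgf (1716 ± 52.2), Cyr61 (521 ± 9.52) and Wisp2 (435 ± 5.02 CPM per kb in ascending fibroblasts) kept this order, and so they did in descending fibroblasts at 1864 ± 37.8, 584 ± 15.2 and 400 ± 14.0 CPM per kb. Wisp1 and Nov exchanged places at both sites. Wisp1 stood at 130 ± 0.845 and Nov at 19.2 ± 0.997 CPM per kb in ascending fibroblasts, and Wisp1 at 133 ± 5.40 and Nov at 13.0 ± 0.616 CPM per kb in descending fibroblasts.

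**Figure D1:**
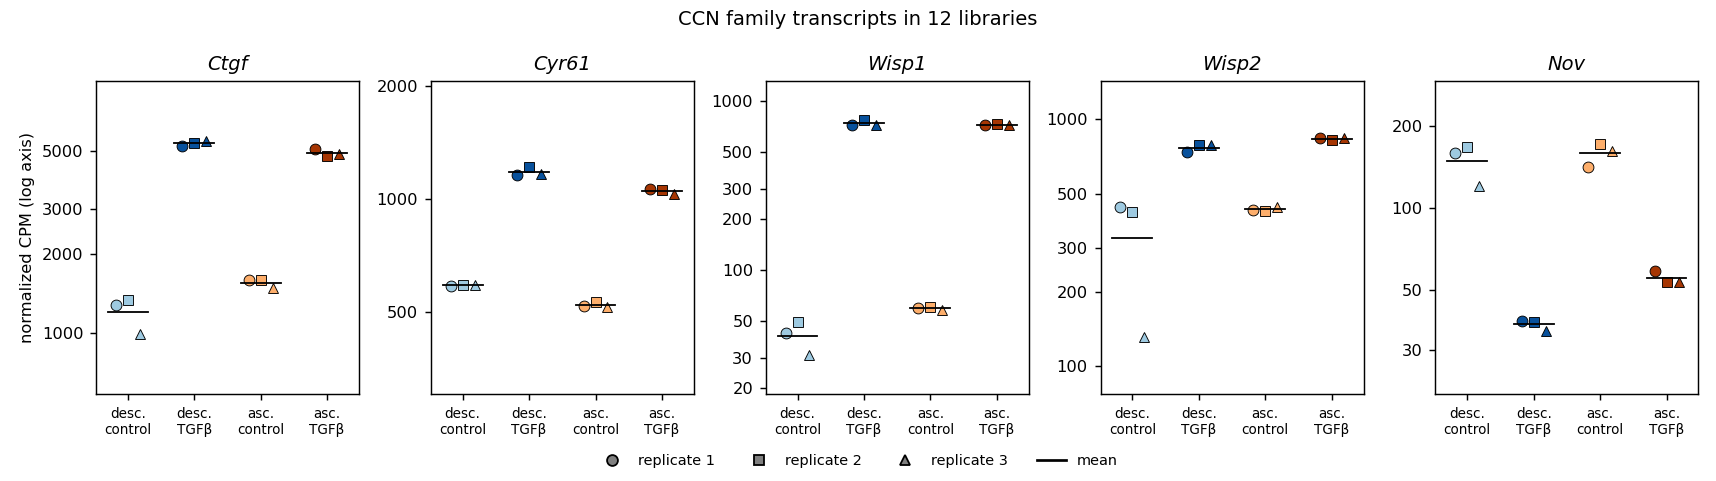
Normalized CPM of the 5 tested CCN transcripts (log axis, a separate range in each panel) in the 12 libraries, by site and treatment, with replicate number as marker shape and the group mean as a line. Wisp1 runs from 31.3 to 774 CPM, and descending control replicate 3 lies below its group for Ctgf, Wisp1, Wisp2 and Nov but not for Cyr61.

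The ratio of Wisp1 to Nov per kb was 0.134 to 0.217 over the 6 control libraries and 6.35 to 10.6 over the 6 TGFb libraries, so the order was the same in every library of a treatment. The ratio of Ctgf to Cyr61 per kb was 1.18, in replicate 3, to 1.60 in descending control, 2.04 to 2.16 in ascending control, 3.10 to 3.30 in descending TGFb and 3.19 to 3.36 in ascending TGFb. The family as a whole took 0.284% to 0.296% of counted reads in ascending control and 0.728% to 0.761% in ascending TGFb. In descending fibroblasts it took 0.166% to 0.275% in control, lowest in replicate 3, and 0.749% to 0.773% with TGFb.

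Of the summed per-kilobase level of the family, Ctgf made up 49.7% ± 1.13 in ascending control and 60.8% ± 0.564 in ascending TGFb, and 44.6% ± 1.29 in descending control (44.0% ± 0.934 without replicate 3) and 62.3% ± 0.613 in descending TGFb. The Cyr61 share was 23.6% ± 0.150 and 18.5% ± 0.370 in ascending control and TGFb, although its own level was higher with TGFb. The share of Wisp1 was 0.972% ± 0.00706 in ascending control and 4.61% ± 0.122 in ascending TGFb, and that of Nov 5.05% ± 0.502 and 0.682% ± 0.0213. Shares depend on the length used. Per kilobase of coding sequence, Wisp1, which has the longest exons of the family outside its coding sequence, made up 8.83% in ascending TGFb, and the order of Cyr61 and Wisp2 depended on the length. Wisp2 lay above Cyr61 in ascending control (576 ± 11.5 against 459 ± 7.60 CPM per kb of coding length) and in ascending TGFb (1110 ± 12.8 against 924 ± 16.9). In descending control it lay below Cyr61 on average (439 ± 230 against 519 ± 1.75) and above it without replicate 3 (571 ± 17.8 against 519 ± 2.15, n = 2), and in descending TGFb the libraries of Wisp2 and Cyr61 overlapped (1022 ± 35.8 and 1038 ± 27.0 CPM per kb of coding length).

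**Figure D2:**
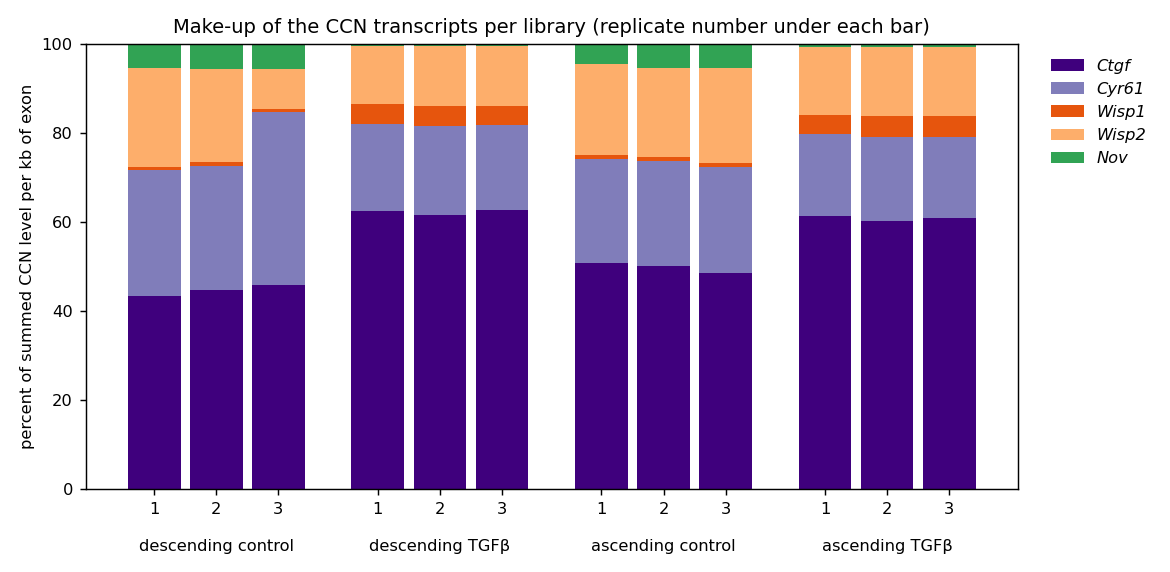
Share of each CCN transcript in the summed family level per kilobase of exon, as stacked bars for the 12 libraries grouped by site and treatment (axis from 0 to 100 percent). The green Nov segment shrinks from 4.47% to 5.58% of the bar in control libraries to 0.406% to 0.706% in TGFb libraries, and the dark orange Wisp1 segment widens from at most 0.979% to at least 4.28%.

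In ascending fibroblasts, 4 CCN transcripts rose with TGFb and Nov fell. Wisp1, a secreted member linked to fibroblast and osteoblast proliferation, changed most, followed by Ctgf, while Cyr61, an immediate-early gene of the family, and Wisp2 each came close to doubling and Nov was reduced 2.88-fold. All 5 tested members passed the quasi-likelihood F-test of edgeR (Benjamini-Hochberg adjusted p under 0.05), where 55.8% of the 13917 genes tested did. In the direction of each, 28.2% of all genes were called higher and 27.6% lower, so a call in itself sets the members little apart, and the sizes carry the description. None of the 5 overlapped between control and TGFb libraries, which held for 61.3% of all genes tested.

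Wisp1 was at 59.4, 60.6 and 57.5 CPM in ascending control and at 720, 729 and 721 CPM in ascending TGFb. The log2 fold change was 3.61 (SE 0.03, adjusted p = 2.12e-20), the 78th largest in absolute value and the 2nd smallest p of the genes tested. Ctgf, which supports matrix production by fibroblasts, was at 1592, 1591 and 1487 CPM in control and at 5071, 4777 and 4876 CPM with TGFb, a log2 fold change of 1.65 (SE 0.03, adjusted p = 1.00e-16). Since Ctgf started highest, it carried most of the added reads of the family although its fold change was 3.14 against 12.2 for Wisp1.

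Cyr61 was at 520, 531 and 514 CPM in ascending control and at 1066, 1057 and 1029 CPM with TGFb. Its log2 fold change was 1.00 (SE 0.03, adjusted p = 1.35e-14). Wisp2, the short member, was at 431, 427 and 443 CPM in control and at 842, 825 and 841 CPM with TGFb, with a log2 fold change of 0.94 (SE 0.03, adjusted p = 3.12e-14). The spread between libraries of a group was small beside either change, but Wisp2 did not pass in a fit of all 12 libraries (adjusted p = 0.0856), where descending control replicate 3 enters the estimate of its spread.

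Nov, the member with antiproliferative activity in several cell types, was at 141, 172 and 162 CPM in ascending control and at 58.5, 53.6 and 53.4 CPM with TGFb. It fell by 1.53 on the log2 scale (SE 0.06, adjusted p = 3.04e-12). The lowest control library still held 141 CPM against a highest TGFb library of 58.5 CPM. Replicate 2 of ascending control had the highest macrophage marker sum (343 CPM, mostly Lyz2 at 292 CPM, against 53.1 CPM in the lowest of this group) and also the highest Nov, Wisp1 and Cyr61 values of its group, and the part of those cells was not tested. Macrophage markers (6 of 6 detected) summed to 53.1 to 343 CPM in ascending control and 29.3 to 41.4 CPM in ascending TGFb, mesothelial markers to 84.7 to 99.7 CPM and 48.5 to 58.0 CPM, and Schwann cell markers to 21.4 to 25.9 CPM and 14.9 to 15.7 CPM, so these sums were lower with TGFb, as Nov was. Smooth muscle markers (6 of 6 detected) summed to 139 to 153 CPM in ascending control and 182 to 194 CPM in ascending TGFb, with Myh11 at 23.2 to 25.5 CPM and 12.5 to 17.7 CPM. The part of these cell types in the changes was not tested.

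In descending fibroblasts the directions were the same for the 5 members, and 4 passed the test, with Wisp2 outside it. Of all 13825 genes, 8.07% were called, 3.59% higher and 4.48% lower. Without descending control replicate 3, all 5 members were called, as were 52.9% of 14311 genes. No tested member overlapped between control and TGFb libraries with or without that library, against 43.5% of all genes tested without overlap with it and 67.3% without it.

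Wisp1 was at 42.0, 48.9 and 31.3 CPM in descending control and at 722, 774 and 722 CPM with TGFb. The log2 fold change was 4.18 (SE 0.20, adjusted p = 0.000905), an 18.1-fold difference, and 4.03 (SE 0.07) without control replicate 3. Ctgf was at 1276, 1337 and 993 CPM in control and at 5224, 5331 and 5441 CPM with TGFb, a log2 fold change of 2.14 (SE 0.14, adjusted p = 0.00156), and 2.03 (SE 0.05) without that library. Both transcripts were lowest in the library that stood apart, and both estimates were smaller without it.

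Cyr61 behaved differently in that library. It was at 588, 592 and 592 CPM in descending control and at 1160, 1215 and 1164 CPM with TGFb, so the control libraries had a SD of 1.99 CPM. The log2 fold change of 0.99 (SE 0.10, adjusted p = 0.00397) became 1.00 (SE 0.05) without control replicate 3. Its adjusted p was 0.0752 in a fit with the replicate number as a block.

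Wisp2 was at 440, 421 and 131 CPM in descending control and at 738, 785 and 785 CPM with TGFb. With all 6 libraries its log2 fold change was 1.21 with a SE of 0.44 and an adjusted p of 0.168, while DESeq2 on the same libraries (adjusted p = 0.0390) and the fit of 12 libraries (adjusted p = 0.0229) called it. DESeq2 called 2531 of 13825 genes there, and the fit of 12 libraries 3570 of 14637. Replicates 1 and 2 of control lay close together and replicate 3 far below them, and without replicate 3 the log2 fold change was 0.84 (SE 0.05, adjusted p = 6.65e-15). Nov was at 159, 167 and 120 CPM in control and at 38.4, 38.2 and 35.3 CPM with TGFb, and it fell by 2.00 on the log2 scale (SE 0.16, adjusted p = 0.00236), or by 2.12 (SE 0.06) without control replicate 3. In that library Nov was low rather than high, as were the TGFb libraries. Summed smooth muscle markers were 196 to 246 CPM in descending control and 319 to 343 CPM in descending TGFb, macrophage markers 27.5 to 48.1 CPM and 14.8 to 26.9 CPM, and Schwann cell markers, with Sox10 at 0, 14.8 to 24.8 CPM and 10.8 to 12.1 CPM. Mesothelial markers summed to 23.3 to 25.1 CPM in descending control and 26.4 to 28.9 CPM in descending TGFb, so this sum was higher with TGFb here and lower with TGFb in ascending fibroblasts, while Nov fell at both sites. The part of these cell types in the changes was not tested.

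**Figure D3:**
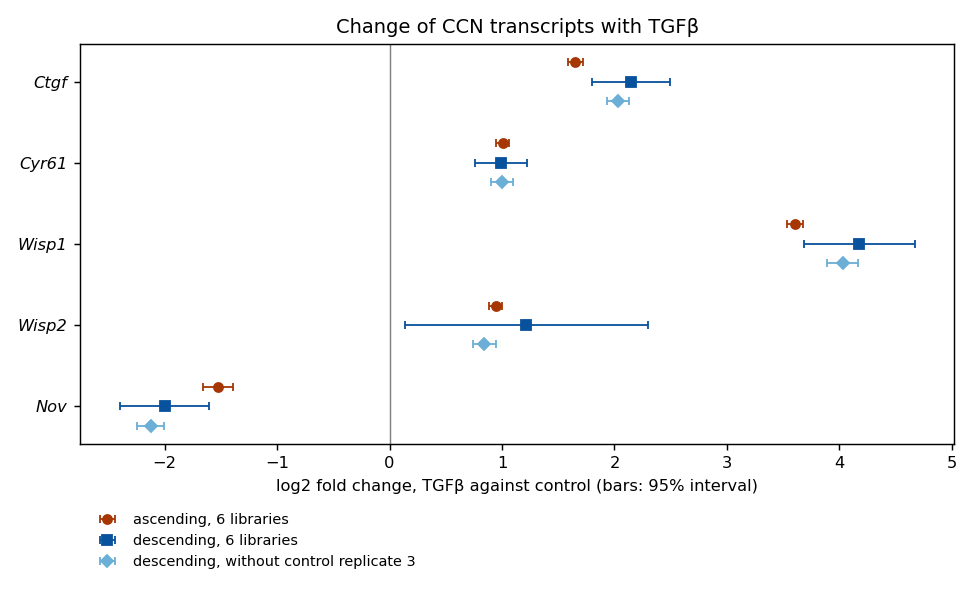
Log2 fold change of each CCN transcript with TGFb (points) and its 95% interval (bars) in ascending fibroblasts (6 libraries), in descending fibroblasts (6 libraries) and in descending fibroblasts without control replicate 3 (5 libraries). Wisp1 lies at 3.61 and above, Nov lies below 0, and the widest interval is that of Wisp2 in the 6 descending libraries (0.13 to 2.29).

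Between the sites in control medium, no CCN transcript passed the test over 6 libraries, where 2.65% of 14090 genes did (1.19% higher and 1.47% lower in ascending fibroblasts). Ctgf was higher in every ascending control library (1487 to 1592 CPM) than in every descending control library (993 to 1337 CPM), and so was Wisp1 (57.5 to 60.6 against 31.3 to 48.9 CPM). Cyr61 was lower in every ascending library (514 to 531 against 588 to 592 CPM). Nov and Wisp2 overlapped between the sites, and 35.3% of all genes tested did not. In the fit of 12 libraries, where 1545 of 14637 genes were called, Ctgf (adjusted p = 0.0436) and Wisp1 (adjusted p = 0.0249) were among them. Mesothelial markers (4 of 4 detected in both groups) summed to 84.7 to 99.7 CPM in ascending control and 23.3 to 25.1 CPM in descending control, with the defining marker Msln at most at 3.57 CPM. Upk3b and Upk1b made up most of the ascending sum, and Krt19 went the other way, at 3.41 to 4.17 CPM in ascending and 6.90 to 11.8 CPM in descending control. Smooth muscle markers summed to 139 to 153 CPM in ascending and 196 to 246 CPM in descending control, and macrophage markers to 53.1 to 343 CPM and 27.5 to 48.1 CPM. Their part in these differences was not tested.

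The log2 differences, ascending minus descending, were 0.38 for Ctgf (SE 0.14, adjusted p = 0.323), 0.54 for Wisp1 (SE 0.18, adjusted p = 0.266) and -0.17 for Cyr61 (SE 0.09, adjusted p = 0.492). Nov differed by 0.10 (95% interval -0.31 to 0.50) and Wisp2 by 0.40 (95% interval -0.67 to 1.47). Without descending control replicate 3, where 31.6% of 14644 genes were called, 3 members passed. Ctgf was then higher in ascending control by 0.27 (SE 0.04, adjusted p = 6.98e-05), Wisp1 by 0.39 (SE 0.07, adjusted p = 0.00048), and Cyr61 was at -0.16 (SE 0.03, adjusted p = 0.00222). Nov stood at -0.03 (95% interval -0.18 to 0.12) and Wisp2 at 0.02 (95% interval -0.06 to 0.11) in that fit.

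With TGFb, Nov separated the sites most clearly. It was at 58.5, 53.6 and 53.4 CPM in ascending TGFb and at 38.4, 38.2 and 35.3 CPM in descending TGFb, a log2 difference of 0.57 (SE 0.06, adjusted p = 3.57e-09), or 1.48-fold. This comparison does not contain the library that stood apart, and 36.3% of 13678 genes were called in it, 18.1% higher and 18.2% lower in ascending fibroblasts. Cyr61 was lower in ascending fibroblasts (log2 difference -0.16, SE 0.03, adjusted p = 0.000324), the same value as in control without descending replicate 3.

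Ctgf (log2 difference -0.12, SE 0.03, adjusted p = 0.00613) and Wisp2 (0.12, SE 0.04, adjusted p = 0.00731) differed in opposite directions and by little. The Ctgf call was lost without ascending TGFb replicate 2 (adjusted p = 0.0562) and the Wisp2 call without descending TGFb replicate 1 (adjusted p = 0.0542). In the fit of 12 libraries, where 1106 of 14637 genes were called, Nov alone of the family passed (adjusted p = 0.0211). Wisp1 overlapped between the sites, at 720 to 729 CPM in ascending and 722 to 774 CPM in descending TGFb, with a log2 difference of -0.03 (95% interval -0.10 to 0.04). The other 4 tested members did not overlap, as was the case for 46.1% of all genes tested. Between these groups, ascending then descending TGFb, smooth muscle markers summed to 182 to 194 CPM and 319 to 343 CPM, mesothelial markers to 48.5 to 58.0 CPM and 26.4 to 28.9 CPM (Krt19 alone to 3.41 to 3.85 CPM and 11.1 to 13.3 CPM), and macrophage markers to 29.3 to 41.4 CPM and 14.8 to 26.9 CPM, and their part in the differences was not tested. Ctgf and Wisp1 stood higher in ascending control libraries and not higher in ascending TGFb libraries.

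That shift is what the interaction measures, the change with TGFb in ascending minus that in descending fibroblasts. Over 12 libraries no member passed, and 0.806% of 14637 genes did, 0.321% with a positive and 0.485% with a negative interaction. Ctgf had an interaction of -0.49 (SE 0.15, adjusted p = 0.210), Wisp1 of -0.57 (SE 0.18, adjusted p = 0.279) and Nov of 0.47 (SE 0.18, adjusted p = 0.402). Cyr61 was at 0.01 (95% interval -0.18 to 0.20) and Wisp2 at -0.27 (95% interval -1.31 to 0.76). DESeq2 on the same 12 libraries called Ctgf (adjusted p = 0.0174) and Wisp1 (adjusted p = 0.0463), among 497 of 14637 genes.

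Without descending control replicate 3, 13.5% of 15013 genes had an interaction, and Ctgf, Wisp1 and Nov were among them. The rise of Ctgf was smaller in ascending fibroblasts (-0.38, SE 0.05, adjusted p = 6.31e-06), as was that of Wisp1 (-0.42, SE 0.07, adjusted p = 0.000119). Nov fell less in ascending fibroblasts (0.60, SE 0.09, adjusted p = 4.05e-05). For Cyr61 the interaction was 0.01 with a 95% interval of -0.09 to 0.11, which bounds any difference between the sites in its response in these 11 libraries, and for Wisp2 it was 0.11 (95% interval -0.0019 to 0.21, adjusted p = 0.216). The 3 members with an interaction in this fit were those with the largest changes with TGFb, and in all 3 the change was larger in descending fibroblasts.

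**Figure D4:**
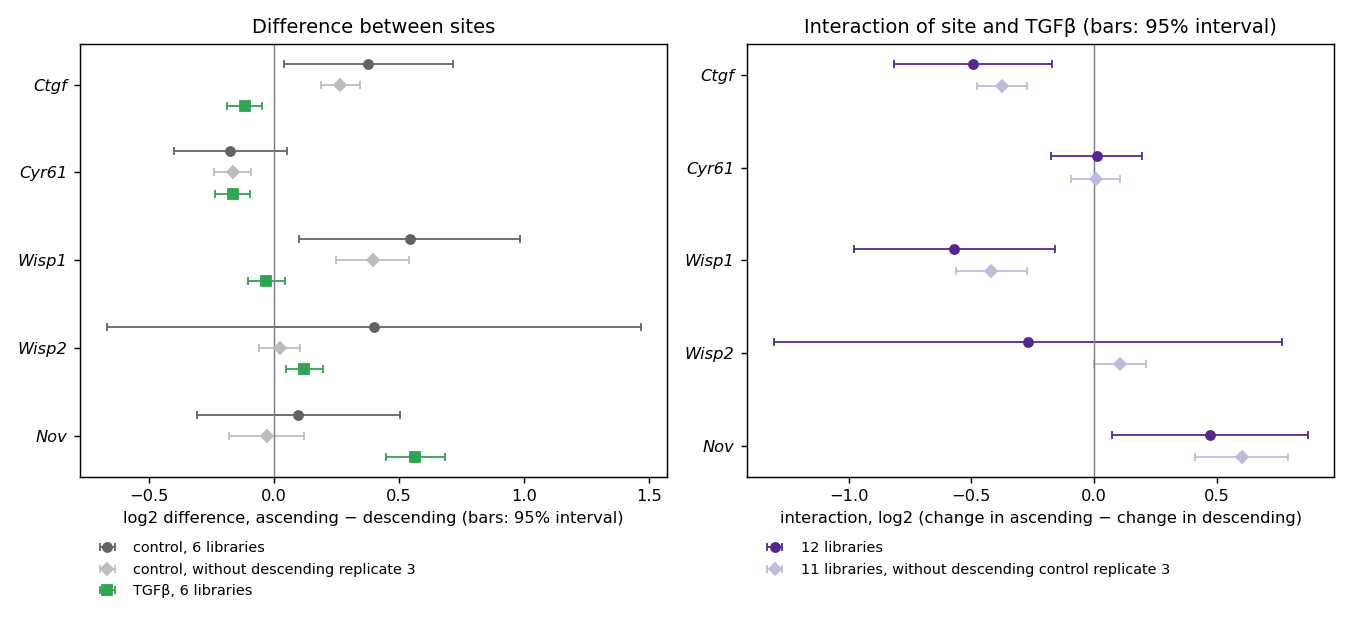
Left, log2 difference of each CCN transcript between the sites, ascending minus descending, in control (6 libraries, and 5 without descending replicate 3) and in TGFb (6 libraries). Right, interaction of site and TGFb over 12 and over 11 libraries. Bars are 95% intervals, which are widest for Wisp2 where descending control replicate 3 is included, and Nov stands at 0.57 in TGFb and at 0.10 in control (6 libraries).

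Cyr61 is the tested member for which a RefSeq promoter sequence was at hand, and it is shown because its level doubled at both sites and was the steadiest between control libraries of the descending group. The 250 bases before the annotated start, chr3:145649986-145650235 on the minus strand of GRCm38.p6, are printed 5′ to 3′ with 3 motif matches in capitals.
Cyr61: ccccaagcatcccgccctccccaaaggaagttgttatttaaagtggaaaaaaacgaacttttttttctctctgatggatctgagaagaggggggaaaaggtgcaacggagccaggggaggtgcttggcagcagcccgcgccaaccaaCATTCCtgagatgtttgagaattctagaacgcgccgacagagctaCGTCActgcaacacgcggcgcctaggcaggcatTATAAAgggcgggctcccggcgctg
In order, the capitals are CATTCC, the element read by the TEAD partners of YAP and TAZ, at positions -103 to -98, the letters of a CRE half-site TGACG on the opposite strand at -58 to -54, and TATAAA at -25 to -20, all counted from the annotated start. Both strands were searched for each motif. CATTCC occurred in 12.6% of 32851 mouse promoter windows of the same length, TGACG in 17.8% and TATAAA in 12.4%. The SMAD element CAGAC (42.2% of windows) and the AP-1 element TGANTCA (6.70%) had no match, which says only that these letters are not in this window. No match overlapped another.

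Across the 12 libraries, Ctgf and Wisp1 had the most similar patterns within the family (Pearson r = 0.997 of log2 CPM, and 0.998 over 11 libraries without descending control replicate 3). These correlations are descriptions, since the libraries share 4 conditions that dominate them. Wisp1 was the 2nd most similar gene to Ctgf of 10431 genes with a range of at least 1 on the log2 scale, after Rusc2 over 12 libraries and after Wnt5a over 11. For Wisp1 the 3 closest were Ctgf, Snx30 and Cx3cl1 over 12 libraries and Skil, a SMAD-induced repressor of SMAD signalling, Ctgf and Ext1 over 11. Cyr61 was closest to Aldh1l2, Prag1 and Pmepa1 over 12 libraries (r from 0.994 to 0.997) and to Xpot, Csdc2 and Plpp5 over 11. Nov ran opposite to Cyr61 (r = -0.979) and was closest to Slc44a1, Zfp36l2 and Akr1c14, of which Zfp36l2 stayed among its 3 closest over 11 libraries. Wisp2 depended most on the library left out. Its r with Cyr61 was 0.737 over 12 libraries and 0.966 over 11, with Surf4 among its 3 closest genes in both.

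Wisp3, a member known from an inherited human cartilage disease, had 1, 3 and 0 counts in descending control, 1, 0 and 0 in descending TGFb, 0, 0 and 1 in ascending control and 0, 1 and 0 in ascending TGFb. A floor of 3 counts corresponds to 0.117 to 0.207 CPM per library, so every value was at or under it. It did not pass the count filter of the main tests, and no fold change is read from it. Fitted in edgeR without a filter on low counts, it was called in no comparison (lowest adjusted p = 0.622, for TGFb in descending fibroblasts).

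The genes around the family moved with TGFb in both directions. Lists of receptors, ligands, regulators and targets are described by how many members were called, beside the share of all genes. In ascending fibroblasts (55.8% of genes called), 6 of 11 tested CCN receptors and co-receptors rose and 4 fell. The integrin subunits Itga5 and Itgb5, parts of fibronectin and vitronectin receptors, rose by log2 values of 1.56 (SE 0.04) and 1.22 (SE 0.03), Itgav by 0.73 and Itgb1 by 0.63, while the receptor Notch1, a reported partner of Nov, fell by 0.99 (SE 0.11) and the heparan sulfate proteoglycan Sdc4 fell by 0.49 (SE 0.05). In descending fibroblasts (8.07% of genes called), 2 of 11 were called, Itga5 at 1.67 (SE 0.23, adjusted p = 0.0124) and Itgb5 at 1.82 (SE 0.29, adjusted p = 0.019), and without control replicate 3 (52.9% of genes called) the counts were 6 higher and 4 lower.

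Of 9 tested growth factors and matrix proteins that CCN proteins bind, 6 rose and 2 fell in ascending fibroblasts, where 55.8% of all genes were called. Igf1 rose by a log2 value of 2.88 (SE 0.13) and Tgfb1, which encodes a TGFb ligand, by 1.40 (SE 0.07), while the BMP ligand Bmp4 fell by 1.12 (SE 0.04) and decorin, Dcn, a proteoglycan that binds TGFb and Ctgf, fell by 1.21 (SE 0.09). In descending fibroblasts (8.07% of genes called) 3 rose and 1 fell, with Igf1 at 2.23 (SE 0.13), Tgfb1 at 1.99 (SE 0.13), Vegfa at 0.75 (SE 0.12) and Dcn at -2.15 (SE 0.39), and 7 rose and 2 fell without control replicate 3 (52.9% of genes called).

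YAP and TAZ bind TEAD factors on DNA and are held back by the Hippo kinases. In ascending fibroblasts (55.8% of all genes called) 7 of 14 genes for YAP, TAZ, TEAD factors and Hippo kinases rose and 4 fell, with a median absolute log2 fold change of 0.20 against 0.28 for all genes tested. Tead4 had the largest change, 0.91 (SE 0.12) in ascending and 1.04 (SE 0.16) in descending fibroblasts, where it was the 1 gene of the list that was called (8.07% of all genes), against 8 higher and 2 lower without control replicate 3 (52.9% of all genes). Their target genes other than Cyr61 and Ctgf split, with 11 of 20 higher and 5 lower in ascending fibroblasts (28.2% and 27.6% of all genes), a median of 0.31 against -0.0044 for all genes. Ankrd1 (2.20, SE 0.04), the tissue factor gene F3 (1.97, SE 0.11) and the kinase gene Nuak2 (1.74, SE 0.06) rose, and Igfbp3 fell by 1.50 (SE 0.04). In descending fibroblasts these 4 were also the ones called, Ankrd1 at 2.61 (SE 0.23), Nuak2 at 2.53 (SE 0.31), F3 at 1.67 (SE 0.16) and Igfbp3 at -1.42 (SE 0.13), with 12 of 20 higher and 4 lower without control replicate 3, where 8.07% and 52.9% of all genes were called with and without that library. Amotl2, a target often read together with Cyr61 and Ctgf, was at 0.04 (SE 0.03, adjusted p = 0.262) in ascending fibroblasts.

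SMAD target genes had a median absolute log2 fold change of 0.99 in ascending fibroblasts, against 0.28 for all genes tested. In that comparison, where 28.2% of all genes were called higher and 27.6% lower, 6 of 7 SMAD target genes rose, among them Pmepa1 (2.39, SE 0.04), which encodes an inhibitor of SMAD signalling, and Skil (1.69, SE 0.05), and Tgfbi fell by 1.62 (SE 0.17). The list's median log2 fold change was 0.52. In descending fibroblasts 3 rose, Pmepa1 by 2.12 (SE 0.12), and Tgfbi fell by 2.56 (SE 0.20), against 5 of 7 higher and 1 lower without control replicate 3 (8.07% and 52.9% of all genes called). Among SRF, its MRTF cofactors and targets, 7 of 9 rose and 1 fell in ascending fibroblasts (28.2% and 27.6% of all genes), with Acta2 at 1.72 (SE 0.03), Tpm1 at 1.63 (SE 0.03) and Cnn1 at 1.94 (SE 0.07), and 4 of 10 rose in descending fibroblasts, with Acta2 at 1.76 (SE 0.09), against 7 higher and 1 lower without control replicate 3 (8.07% and 52.9% of all genes called).

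Canonical Wnt target genes, listed because Wisp1 and Wisp2 carry the name of WNT1, moved both ways. In ascending fibroblasts 3 of 6 tested genes rose and 2 fell, where 55.8% of all genes were called. Lef1, a Wnt-responsive transcription factor, rose by a log2 value of 2.48 (SE 0.36), and the Wnt inhibitors Apcdd1 and Nkd1 fell by 1.80 (SE 0.08) and by 1.15 (SE 0.18). In descending fibroblasts Nkd2 rose (1.01, SE 0.16) and Apcdd1 fell by 1.91 (SE 0.24) among 7 tested, against 3 higher and 2 lower without control replicate 3 (8.07% and 52.9% of all genes called). Axin2, the most used Wnt readout, was tested in descending fibroblasts, at 0.70 (SE 1.12, adjusted p = 0.749), and did not reach the count minimum in ascending fibroblasts.

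**Figure D5:**
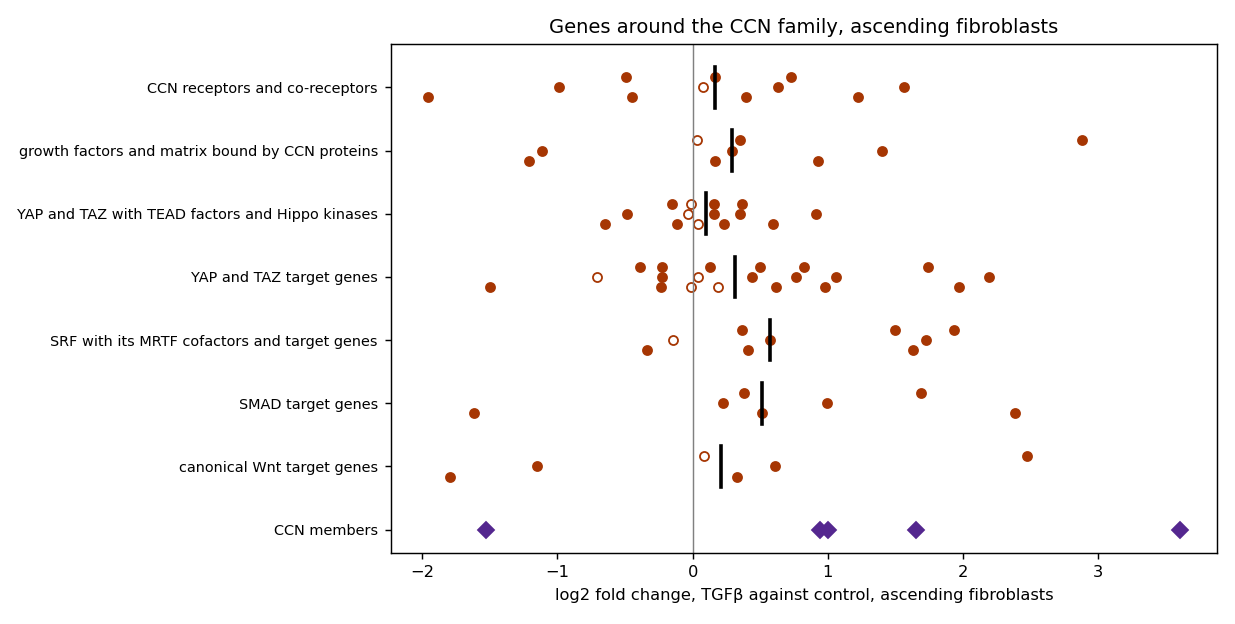
Log2 fold change with TGFb in ascending fibroblasts for each tested gene of the 7 lists (circles, filled where adjusted p is under 0.05, with the list's median as a black line) and for the 5 tested CCN members (diamonds in the lowest row). Igf1 at 2.88 is the largest value of the lists, below Wisp1 at 3.61.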

How the data were processed

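RNA sequencing counts of 12 libraries were used. The authors aligned reads to mm10 with STAR, after FastQC, and deposited raw counts per gene symbol from featureCounts, without normalization; the versions are not given in the sources used here. The age and number of passages differ between the labels and parts of the study's text. The CCN members and gene lists were chosen with earlier results of these data known. Libraries were grouped by the site and treatment in the labels. Counts were tested in R 4.3.3 with edgeR 4.0.16 (quasi-likelihood F-test, two-sided, TMM, filterByExpr at 10 counts and 15 in total, Benjamini-Hochberg adjustment, adjusted p under 0.05) on the 6 libraries of each comparison, or on 12 for the interaction. A SE is the log2 fold change divided by the square root of F. A floor of 3 counts covers counting error only. The test scripts were tested on simulated data. The alternatives were DESeq2 1.42.0, its size factors in edgeR, other count filters, a replicate block, a fit of 12 libraries, coding length and leaving out each library. Members were named in full, and list genes among the 3 in each direction that had the lowest adjusted p in a comparison, plus Itgav, Amotl2 and Axin2, chosen after their values were seen. Figures and sequence tables used Python 3.11.15 with pandas 2.3.3, numpy 2.4.6 and matplotlib 3.10.9. Sequences came from GENCODE vM21 and from the RefSeq promoter table on GRCm38.p6, which held 2 of the 6 members (Cyr61 and Wisp3). Deviations of same-numbered libraries from their group means correlated at -0.026 to 0.065, so the numbers were not treated as pairs. An item of the gene lists is not reported here.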

Additional observations from a re-analysis of the deposited data

Results flagged for a closer look

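Ctgf, Wisp1 and Nov changed differently with TGFb at the 2 sites when descending control replicate 3 was left out (edgeR's interaction test over 11 libraries, 2 of them descending control). In that fit 13.5% of 15013 genes had an interaction. The interaction was -0.38 for Ctgf (adjusted p = 6.31e-06), -0.42 for Wisp1 (adjusted p = 0.000119) and 0.60 for Nov (adjusted p = 4.05e-05), on the log2 scale. Over 12 libraries none of the 3 passed (adjusted p = 0.210, 0.279 and 0.402), with the same signs. Leaving out any 1 of the other 11 libraries instead left all 3 uncalled. The library left out had fewer genes detected and more mitochondrial reads than the other 11.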

How the results depend on the processing

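In ascending fibroblasts the directions and calls of Wisp1, Ctgf, Cyr61 and Nov were the same under all 12 alternatives tried, and Wisp2 lost its call in the fit of 12 libraries. The counts of genes called moved most where descending control replicate 3 enters. For TGFb in ascending fibroblasts 2338 genes were called in the fit of 12 libraries against 7767, and for the sites in TGFb 1106 against 4963. For TGFb in descending fibroblasts (1115) the counts were 2531 with DESeq2, 3570 in the fit of 12 libraries and 213 to 7576 when leaving out 1 library. For the sites in control (374) they were 1151, 1545 and 33 to 4631, and for the interaction (118) 497 with DESeq2, 56 with no filter on low counts and 25 to 2022 when leaving out 1 library. DESeq2 without descending control replicate 3, an alternative chosen after seeing the data, called 6582 genes for TGFb in descending fibroblasts, 3804 for the sites in control and 1849 for the interaction. Estimates near 0 changed sign, and so did the Wisp2 interaction. Nov between sites in control was -0.029 to 0.19 when leaving out 1 library and -0.027 with DESeq2 without descending control replicate 3. Wisp1 between sites in TGFb was -0.050 to 0.0016. The Cyr61 interaction was -0.0066 to 0.028, and -0.011 with DESeq2 without that library. The Wisp2 interaction was -0.27 over 12 libraries, -0.53 to 0.11 when leaving out 1 library, and 0.088 with DESeq2 without descending control replicate 3. It was above 0 only where that library was left out. The cause was not tested.

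With the replicate number as a block, 95 genes were called for TGFb in descending fibroblasts, 50 for the interaction, 7766 for TGFb in ascending fibroblasts, 5056 for the sites in TGFb and 0 for the sites in control (1235 at an unadjusted p under 0.05). The block moved the median log2 fold change of all genes to 0.102 for TGFb in descending fibroblasts and to 0.104 for the sites in control. The libraries share only a number, and Cyr61 in descending fibroblasts (adjusted p = 0.0752) was the member whose call the block changed.

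The 5 tested members had counts above the floor of 3 in every library. Wisp3, at 0 to 3 counts per library, was compared between groups only in the fit without a filter on low counts. It was called in no comparison there (lowest adjusted p = 0.622, edgeR, for TGFb in descending fibroblasts). At these counts the fit cannot tell a difference between groups from none.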
